A study of Mus musculus with 16 samples.

Results

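The Ikaros family of zinc finger transcription factors was examined at the level of genes, transcripts, exons and 3′ ends in CD8+ T cells that had received a gRNA against Tardbp or a control gRNA. The members were the 5 genes Ikzf1 (Ikaros), Ikzf2 (Helios), Ikzf3 (Aiolos), Ikzf4 (Eos) and Ikzf5 (Pegasus), chosen by symbol among 55536 genes. They held 34 of the 141862 annotated transcripts and 44 of the 125520 splicing nodes in the authors' table. A node is a stretch of exon that can be used or skipped as a unit, and its Psi is the fraction of a gene's spanning RNA that uses it, from 0 to 1. For nodes at starts and 3′ ends, Psi is instead the fraction of RNA that starts or ends there. RNA with a more distal 3′ end still holds the 3′ end nodes before it.

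The cells were CD8+ T cells of OT-I Tg mice on the C57BL/6J strain, whose T cell receptor recognises the SIINFEKL peptide, and the study's methods give the donors as Rag1-/- or Rag2-/-. They were electroporated with Cas9 and either Control gRNA (scrambled) or Tardbp gRNA, left to recover and transferred into C57BL6/J recipients. Recipients in both groups were given the peptide with the agonist antibodies anti-OX40 and anti-41BB as costimulation, and spleen and lymph nodes were taken after 4 days per the labels. Each group had 8 libraries of sorted CD8+ T cells. Electroporation edits a mixture of cells and no edited clone was isolated. From an immunoblot, the study reports that cells given Tardbp gRNA made no Tardbp protein, while the values here are of RNA. Mice of both sexes were used, and an age was not given for each library. The study describes cells purified from 8 individual recipients, while the labels do not tie each library to one. The p-values measure the spread between these libraries.

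Ikaros family proteins bind DNA through a cluster of C2H2 zinc fingers in the N-terminal part and pair with each other through another cluster of fingers at the C terminus. In lymphocytes they recruit repressive chromatin complexes to their target genes, and Ikaros itself is known to restrain cytokine genes and proliferation in T cells. Isoforms that lack DNA-binding fingers but keep the pairing fingers are known to bind DNA poorly and to hold back full-length partners. TDP-43, the product of Tardbp, is an RNA-binding protein that prefers UG-rich RNA and controls exon inclusion and polyadenylation.

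The sequences on which the isoform results turn were read from GENCODE M21 transcripts on GRCm38. A C2H2 pattern was searched for in the translated main transcript of each gene, and 6 fingers were found in each of Ikzf1-204, Ikzf2-201, Ikzf3-201 and Ikzf4-201 and 5 in Ikzf5-201. In Ikzf1-204 the first finger is coded by exon 4, fingers 2 and 3 by exon 5, finger 4 by exon 6, and fingers 5 and 6 by exon 8, the last. Exon 4 of Ikzf1 is shown because it carries 1 whole DNA-binding finger and can be skipped in frame, with the bases that code for the finger in capitals. It lies at chr11:11748311-11748571 on the plus strand.
Ikzf1 exon 4: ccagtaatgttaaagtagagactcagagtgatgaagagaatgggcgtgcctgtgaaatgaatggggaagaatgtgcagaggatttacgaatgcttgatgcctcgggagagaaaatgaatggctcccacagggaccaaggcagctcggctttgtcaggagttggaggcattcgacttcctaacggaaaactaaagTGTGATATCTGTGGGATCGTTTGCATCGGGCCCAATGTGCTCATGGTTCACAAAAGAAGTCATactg
The corresponding stretch of Ikzf2, node 10, is used or lost through a choice of donor site at the end of its exon 4, at chr1:69577781-69577858 on the minus strand. It is shown beside the Ikzf1 exon because it codes for the same first finger, again in capitals, and 53 of the 63 finger bases are identical between the genes.
Ikzf2 node 10: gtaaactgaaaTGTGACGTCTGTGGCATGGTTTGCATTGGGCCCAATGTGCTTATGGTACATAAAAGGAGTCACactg
A coding exon of 60 bases at chr11:11740950-11741009, on the plus strand, is held by Ikzf1-203 and by no other annotated Ikzf1 transcript.
Ikzf1 60-base exon: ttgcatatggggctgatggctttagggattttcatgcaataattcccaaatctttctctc

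Ikzf1-201, Ikzf1-203 and Ikzf1-204 are the Ikzf1 transcripts that reach the last coding exon, and they end at different positions within it. Their annotated 3′ UTRs are 220, 2534 and 3348 bases long. The last 30 bases of each are shown because the 3′ end results compare them, at chr11:11769769-11769798, chr11:11772083-11772112 and chr11:11772897-11772926 on the plus strand.
Ikzf1-201: ggaacattcacaacatccatccttctagcc
Ikzf1-203: gctggtaaaggagggttttgcatgacctca
Ikzf1-204: tgtttccaatcctttctaatacattttttc
The hexamers AATAAA and ATTAAA, the common polyadenylation signals, were not found on the transcript strand in the last 40 bases of any of these ends. One or other hexamer stood in 48.6% of the 50094 annotated ends of protein-coding transcripts. The 2 ends of Ikzf5, proximal in Ikzf5-202 (chr7:131390368-131390397, minus strand) and distal in Ikzf5-201 (chr7:131388652-131388681, minus strand), each held 1 such hexamer, shown in capitals.
Ikzf5-202: gcctggcaaaacAATAAAacattgtcactt
Ikzf5-201: aatgtattAATAAAaagtaacactttctaa
The hexamer TGTGTG, a DNA spelling of the UG repeat, was counted on the transcript strand with overlapping matches allowed. It occurred 3 times in the 814 bases that only the distal Ikzf1 3′ end adds (node 15) and 1 time in the 2314 bases before them (node 14). It was present in 41.3% and 76.8% of the annotated coding transcript ends of these lengths. In the distal stretches of other members it occurred 28 times in 6823 bases of Ikzf2 (node 17) and 1 time in 1716 bases of Ikzf5 (node 9). The proximal stretch of Ikzf5 (node 8, 1754 bases) held none. Ends of these 3 lengths held it in 97.9%, 67.0% and 67.9%. These percentages count ends with any match, not the number of matches. Exon 4 and the 60-base exon of Ikzf1 held no TGTGTG.

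Libraries held 56016533 to 94801105 estimated counts in annotated genes. Tardbp, the targeted gene, lay between 172 and 207 CPM (counts scaled to the same total in every library) in Control gRNA libraries, with a median of 198, and between 110 and 147, with a median of 136, in Tardbp gRNA libraries. It fell by 0.51 on the log2 scale (SE 0.056, edgeR quasi-likelihood test, adjusted p = 8.07e-07), and the groups did not overlap, as for 16.9% of all genes tested. The 6 CD8 T cell markers (Cd3e, Cd3g, Cd8a, Cd8b1, Trac and Lck) summed to 4371 to 5293 CPM and 6118 to 7649 CPM. All 6 were called higher, beside 23.5% of all genes. Summed markers of other cells also stood higher with Tardbp gRNA and were low in level, with 8 B cell genes at 11.7 to 26.5 CPM and 26.6 to 41.5 CPM and 8 myeloid and dendritic cell genes at 24.9 to 43.1 CPM and 31.2 to 89.7 CPM. For 4 NK cell genes the sums were 13.8 to 65.1 and 40.7 to 106 CPM, and for 5 red cell precursor genes they were 0.214 to 11.2 and 6.25 to 112 CPM. Eomes made up most of the NK cell sum, with medians of 15.6 and 49.6 CPM beside 20.5 and 54.2 CPM for the sum. The NK cell sum thus mostly followed 1 gene. Eomes and Tyrobp were called higher, while Ncr1 and Klrb1c were not called (edgeR adjusted p = 0.353 and 0.0828). Per tested gene, 1 of 6 B cell, 2 of 4 NK cell, 1 of 6 myeloid and dendritic cell and 2 of 3 red cell precursor genes were called higher. None of these was called lower. Over all genes, 23.5% were called higher and 23.3% lower. Pax5, a defining B cell gene, was at 0 in 7 of 8 Control gRNA and 8 of 8 Tardbp gRNA libraries, and Cd4 reached at most 0.601 CPM. RNA concentration before library preparation, deposited with no unit, was 34.9 to 197.1 for the Control gRNA libraries and 10.1 to 24.0 for the Tardbp gRNA libraries, so concentration and group cannot be told apart.

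At the gene level, Ikzf1 was lower and Ikzf2 and Ikzf3 were higher in cells given Tardbp gRNA, while Ikzf4 and Ikzf5 did not pass the test. Thus 3 of 5 members were called at an adjusted p under 0.05, beside 46.7% of all 16650 genes tested (23.5% higher and 23.3% lower, with a median log2 fold change of 0.046). Of 5 members, 3 calls are not set apart from that background. With RNA concentration added to the fit none of the 3 was called (edgeR adjusted p = 0.105 for Ikzf1, 0.928 for Ikzf2 and 0.291 for Ikzf3), and Ikzf2 turned to -0.10. That fit called 2697 of all 16650 genes in place of 7783. In this bulk RNA, fewer cells of a type and less RNA per cell cannot be told apart.

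Ikzf1, the founding member, ranged from 161 to 207 CPM with a median of 193 in Control gRNA libraries and from 134 to 172 CPM with a median of 160 in Tardbp gRNA libraries. The groups overlapped, and 5 of 8 Tardbp gRNA libraries lay below the lowest Control gRNA library. The log2 fold change was -0.23 (SE 0.062, edgeR adjusted p = 0.00483).

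Ikzf3, which is prominent in mature lymphocytes, ranged from 44.4 to 105 CPM with a median of 80.5 in Control gRNA libraries and from 92.7 to 119 CPM with a median of 105 in Tardbp gRNA libraries. Here 4 of 8 Tardbp gRNA libraries lay above the highest Control gRNA library. The log2 fold change was 0.47 (SE 0.14, edgeR adjusted p = 0.0112). B cells also express Ikzf3, and the summed B cell markers above moved with the group. Their part in the result was not tested.

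Ikzf2, a marker of regulatory T cells and of some activated T cells, ranged from 3.64 to 14.8 CPM with a median of 10.3 in Control gRNA libraries and from 7.51 to 23.9 CPM with a median of 19.5 in Tardbp gRNA libraries. Only 5 of 8 Tardbp gRNA libraries lay above the highest Control gRNA library, and the spread within groups was wide. The log2 fold change was 0.75 (SE 0.27, edgeR adjusted p = 0.0315). This call rested on single libraries, since the adjusted p lay between 0.0524 and 0.0768 without Control gRNA library 2 or 5 or without any 1 of Tardbp gRNA libraries 3 to 7. It was also lost with no filter on low counts (edgeR adjusted p = 0.0512) and without the 2 Tardbp gRNA libraries highest in B cell markers (0.57, edgeR adjusted p = 0.135). Foxp3, which defines regulatory T cells, lay at 0.168 to 0.370 CPM and 0.125 to 0.498 CPM. The 8 regulatory T cell genes, of which Ikzf2 and Ikzf4 are 2, summed to 192 to 378 CPM and 243 to 327 CPM. Of the 7 tested, 3 were called higher (Ikzf2, Ctla4 and Tnfrsf18) and 1 lower (Nrp1), beside 23.5% and 23.3% of all genes. Nrp1 made up much of the sum, at 111 to 261 CPM and 124 to 171 CPM (log2 fold change -0.43, edgeR adjusted p = 0.0109). The sum thus hid changes in both directions.

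Ikzf4, like Ikzf2 a partner gene of Foxp3 in regulatory T cells, was the least abundant, at 0.156 to 0.755 CPM with a median of 0.342 in Control gRNA libraries and 0.292 to 0.839 CPM with a median of 0.603 in Tardbp gRNA libraries. Its log2 fold change was 0.58 (SE 0.33, edgeR adjusted p = 0.166). Ikzf5, the most divergent member, lay at 13.2 to 18.3 CPM with a median of 15.3 and 12.5 to 16.4 CPM with a median of 13.9. Its log2 fold change was -0.16 (SE 0.078, edgeR adjusted p = 0.0977), and it passed the threshold without Control gRNA library 1 (adjusted p = 0.0312) or Tardbp gRNA library 5 (0.0408) or 8 (0.0260).

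**Figure D1:**
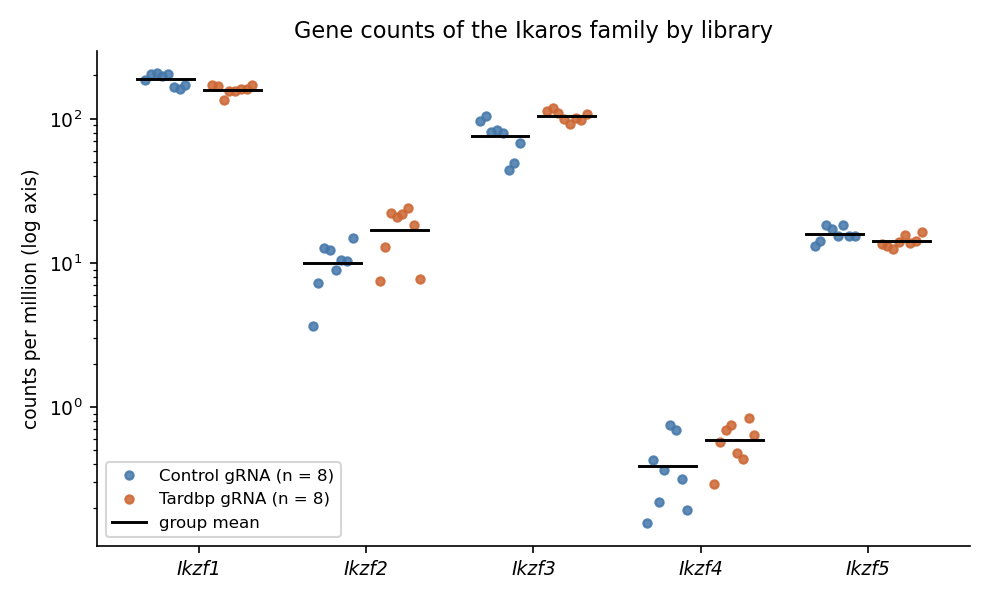
Gene counts of the 5 members in CPM on a log axis, 1 point for each of 8 Control gRNA and 8 Tardbp gRNA libraries, with a bar at each group mean. Ikzf1 and Ikzf3 lie highest, the groups overlap for every member, and Ikzf4 stays below 1 CPM in all 16 libraries.

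Levels of different genes were compared per length, in TPM, transcript counts divided by length and scaled to the same sum in each library. In all 16 libraries Ikzf1 was highest, Ikzf3 next and Ikzf4 lowest. Ikzf2 stood above Ikzf5 in 7 libraries and below it in 9, so this pair had no fixed order. The median level of Ikzf1 was 75.1 TPM in Control gRNA libraries and 61.5 TPM in Tardbp gRNA libraries, and that of Ikzf3 was 40.7 and 50.2 TPM. As a share of the summed level of the 5 genes, Ikzf1 held 56.7 to 65.3% (60.6 ± 3.0%, SD, n = 8) in Control gRNA libraries and 43.8 to 51.2% (48.4 ± 2.3%, SD, n = 8) in Tardbp gRNA libraries, with no overlap between groups. Across single genes, CPM did not overlap between the groups for 16.9% of those tested. Ikzf3 held 21.5 to 37.3% and 35.6 to 42.2% of the summed level, and 7 of 8 Tardbp gRNA libraries lay above the highest Control gRNA library. These shares have a fixed sum, so a lower share of 1 gene raises the others.

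Across the 16 libraries, after each group's mean was taken out, the genes whose log2 CPM was most like that of Ikzf1 were Ptk2b, Zfp82 and Actb (Pearson r of 0.95, 0.89 and 0.89). For Ikzf2 they were Fbxo27, Htatip2 and Pyroxd1 (0.92, 0.90 and 0.90), and for Ikzf3 they were Fhl2, Psen2 and Sema4a (0.94, 0.93 and 0.93). For Ikzf4 they were Tef, Zc3h6 and Gata1 (0.94, 0.81 and 0.80), and for Ikzf5 they were Chm, 5033406O09Rik and Ap2b1 (0.85, 0.85 and 0.84). Among the members, Ikzf1 and Ikzf3 were most alike (r = 0.67) and Ikzf3 and Ikzf5 least (r = -0.47). These values share libraries and depth and are a description.

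Of the 34 annotated transcripts, 18 passed the filter on low counts, with all 6 of Ikzf1, 4 of Ikzf2, all 4 of Ikzf3, 1 of Ikzf4 and 3 of Ikzf5. The passing transcripts held 98.7% or more of each gene's counts. For Ikzf4, all counts fell on Ikzf4-201, and its 7 other transcripts were at 0 in every library. The remaining unfiltered transcripts of Ikzf2 and Ikzf5 had at most 150 counts summed over the 16 libraries. After the fit over all 40897 transcripts, 3 of the members' transcripts were called, beside 16.6% of all transcripts (8.5% higher and 8.14% lower). They were Ikzf1-203 and Ikzf1-201, both lower, and Ikzf3-203, higher. The CPM of the groups overlapped for all 18 transcripts that passed, beside 5.77% of all transcripts whose groups did not overlap.

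With RNA concentration added to the fit none of the 3 was called, and the value for Ikzf1-203 was then -1.97 (edgeR adjusted p = 0.314). The most abundant Ikzf1 transcript, Ikzf1-204, was not among those called. Ikzf1-204, with 8 exons and 5163 bases at chr11:11686213-11772926, ranged from 121 to 184 CPM with a median of 136 in Control gRNA libraries and from 120 to 162 CPM with a median of 143 in Tardbp gRNA libraries. The ranges nearly coincided, and the log2 fold change was -0.02 (SE 0.087, edgeR adjusted p = 0.94).

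Ikzf1-203, at chr11:11685925-11772112, shares the coding frame of Ikzf1-204 apart from its 60-base exon (1605 against 1545 coding bases) and has the shorter 3′ UTR. It ranged from 10.4 to 63.4 CPM with a median of 42.0 in Control gRNA libraries and from 3.16 to 18.4 CPM with a median of 12.1 in Tardbp gRNA libraries. The groups overlapped, with 3 of 8 Tardbp gRNA libraries below the lowest Control gRNA library. The log2 fold change was -1.95 (SE 0.42, edgeR adjusted p = 0.00405).

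Ikzf1-201, at chr11:11686445-11769798, lacks exon 4 and so the first DNA-binding finger, and its annotated 3′ UTR is the shortest of the 3. It was rare, at 0.610 to 5.18 CPM with a median of 1.08 in Control gRNA libraries and 0.062 to 0.740 CPM with a median of 0.240 in Tardbp gRNA libraries. All but 1 Tardbp gRNA library, 7 of 8, lay below the lowest Control gRNA library. The log2 fold change was -2.48 (SE 0.56, edgeR adjusted p = 0.0054), and it ranged from -2.83 to -1.97 when each library was left out in turn, Control gRNA library 2 with its 5.18 CPM included. Ikzf1-202, Ikzf1-205 and Ikzf1-206, short transcripts of 911, 446 and 242 bases that end before the last coding exon, had log2 fold changes of -0.16, -0.01 and -0.27 and were not called (edgeR adjusted p = 0.756, 0.972 and 0.596).

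As shares of the gene's counts, Ikzf1-204 held 63.8 to 92.2% with a median of 73.6% in Control gRNA libraries and 86.0 to 94.4% with a median of 90.1% in Tardbp gRNA libraries. Ikzf1-203 held 5.24 to 30.8% with a median of 23.4% and 2.22 to 11.7% with a median of 7.14%. Within Control gRNA the shares were spread widely and 1 library, number 4, resembled the other group, whereas the Tardbp gRNA libraries lay close together. The share of Ikzf1-204 rose by 14.8 percentage points (SE 3.5, limma adjusted p = 0.0274) and that of Ikzf1-203 fell by 14.5 percentage points (SE 3.4, limma adjusted p = 0.0259). These were the 2 shares called among 17 of the members, beside 0.622% of 32777 shares tested. Shares of a gene have a fixed sum, and Ikzf1-203 and Ikzf1-204 hold most of the Ikzf1 counts. The 2 calls are thus 1 shift seen from both sides. Both calls were lost without any 1 of Control gRNA libraries 1, 3 or 6 or Tardbp gRNA libraries 3 or 5, with adjusted p between 0.0501 and 0.0586 and differences, as fractions, of -0.140 to -0.131 for Ikzf1-203 and 0.134 to 0.143 for Ikzf1-204.

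**Figure D2:**
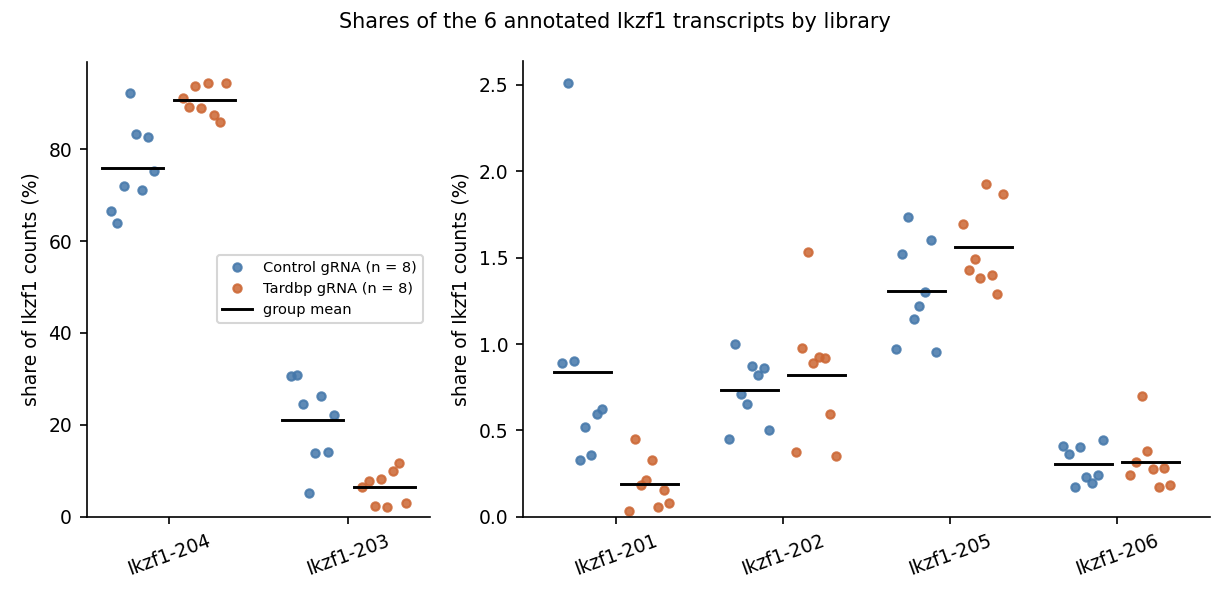
Share of Ikzf1 counts held by each of its 6 annotated transcripts in percent, 1 point per library (n = 8 per group) with a bar at the group mean. Ikzf1-204 lies between 86.0 and 94.4% in Tardbp gRNA libraries and between 63.8 and 92.2% in Control gRNA libraries, and the 4 rarer transcripts are drawn on a finer scale.

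The 3′ ends of Ikzf1 were compared through the transcripts that reach the last coding exon, with counts scaled by transcript length. The distal end, that of Ikzf1-204, took 0.602 to 0.931 with a median of 0.723 of these transcripts in Control gRNA libraries and 0.865 to 0.966 with a median of 0.913 in Tardbp gRNA libraries. Only 3 of 8 Tardbp gRNA libraries lay above the highest Control gRNA library. The mean rose from 0.748 ± 0.108 to 0.921 ± 0.039 (SD, n = 8 per group), a difference of 0.174 (two-sided exact permutation test over all arrangements of the libraries, p = 0.00124). In the authors' Psi table, which has 1 value per group and so allows no test, the distal 3′ end node (node 15) went from 0.307 to 0.70. The node before it (node 14, where Ikzf1-203 ends) went from 0.648 to 0.30, and the most proximal (node 13, where Ikzf1-201 ends) from 0.0452 to 0.000257. The order of the 3 ends by Psi was thus 14, 15, 13 under Control gRNA and 15, 14, 13 under Tardbp gRNA, whereas by transcript counts the distal end was the most used in both groups.

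Counts and Psi also differed for the 60-base exon that Ikzf1-203 alone holds. Rebuilt from transcript counts, its inclusion was 0.0496 to 0.288 with a median of 0.213 in Control gRNA libraries and 0.0195 to 0.109 with a median of 0.0650 in Tardbp gRNA libraries. The difference of -0.130 did not pass the test (SE 0.030, limma adjusted p = 0.0974). The authors' Psi of this exon was 0.0230 and 0.0211. By Psi the exon was thus rare in both groups, while the only transcript that carries it is also the one that ends at node 14. The transcript table offers no annotated transcript with this 3′ end and without the 60-base exon.

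Exon 4 of Ikzf1, which codes for the first DNA-binding finger, went from a Psi of 0.776 with Control gRNA to 0.960 with Tardbp gRNA in the authors' table. Its inclusion rebuilt from all transcripts that span it was 0.755 to 0.862 with a median of 0.826 in Control gRNA libraries and 0.772 to 0.840 with a median of 0.812 in Tardbp gRNA libraries. The groups overlapped almost fully, and the difference of -0.011 did not pass the test (two-sided exact permutation test, p = 0.480). The skipping side of this measure is made mostly of the short Ikzf1-202 and Ikzf1-205, which end before the last coding exon. Among the transcripts that reach the last coding exon, an alternative chosen after the data were seen, inclusion was 0.921 to 0.989 with a median of 0.980 in Control gRNA libraries and 0.985 to 0.999 with a median of 0.994 in Tardbp gRNA libraries. There 6 of 8 Tardbp gRNA libraries lay above the highest Control gRNA library, with a difference of 0.0209 (two-sided exact permutation test, p = 0.000777). The skipping side of this second measure is Ikzf1-201 alone, which is also the only transcript with the most proximal 3′ end. No annotated transcript skips exon 4 and has a more distal 3′ end. This measure therefore cannot tell exon 4 skipping from loss of that proximal end. The direction of the exon 4 result from counts thus depended on which transcripts were counted, and its size was far below that of Psi.

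**Figure D3:**
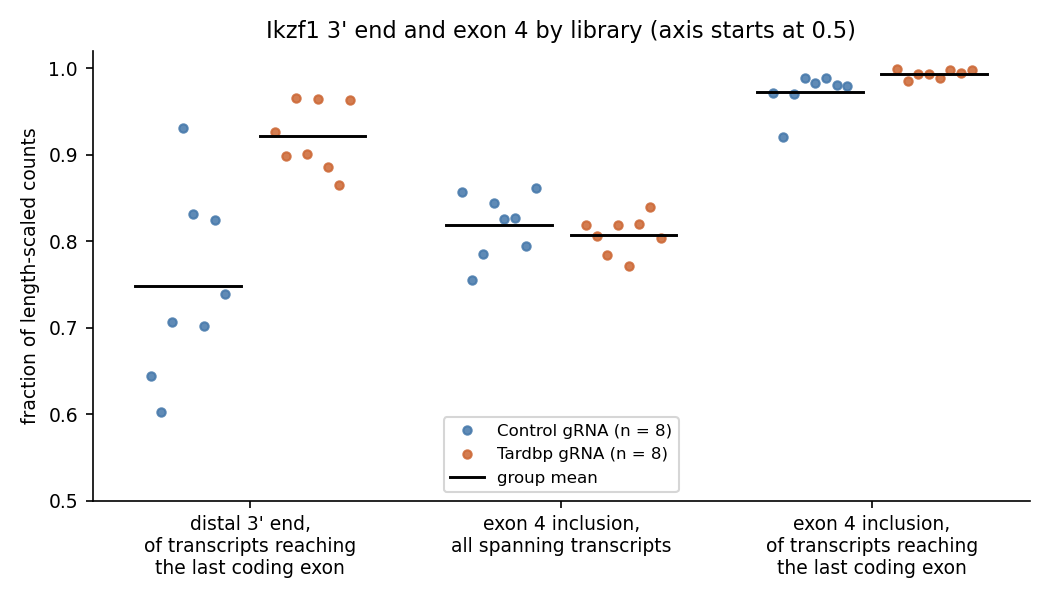
Ikzf1 3′ end and exon 4 use per library as fractions of length-scaled transcript counts, with 8 points per group and a bar at each group mean, on an axis that starts at 0.5. The distal 3′ end lies at 0.865 to 0.966 in Tardbp gRNA libraries and 0.602 to 0.931 in Control gRNA libraries, and exon 4 inclusion is shifted between overlapping groups among the transcripts that reach the last coding exon.

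Across the family, 6 of 44 nodes had a Psi difference over 0.1 in size, beside 4.7% of all nodes. They were Ikzf1 nodes 8, 14 and 15, Ikzf5 nodes 8 and 9, and Ikzf2 node 10. Of the members' 22 core exons 1 passed this threshold, Ikzf1 exon 4, beside 0.932% of all core exons. Of their 11 3′ end nodes 4 did, beside 21.5% of all 3′ end nodes. A gene's RNA is divided among its 3′ end nodes, so these changes are not independent. Ikzf1 nodes 14 and 15 (-0.348 and 0.393) are mostly 1 shift seen from both sides, as are Ikzf5 nodes 8 and 9 (-0.143 and 0.143). The share over all 3′ end nodes counts such pairs too. None of the 5 members' core exons that could be rebuilt from transcript counts was called by limma (1 had an unadjusted p under 0.05), beside 0.0493% of 10143 rebuilt core exons, and limma was the only tool run on them.

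The exons that code for DNA-binding fingers were compared through their nodes. In Ikzf1 the first finger (exon 4) was the variable one, while the Psi of the exon with fingers 2 and 3 was 0.997 in both groups and that of the exon with finger 4 was 0.893 and 0.919. The remaining Ikzf1 core exons lay at 0.992 and 0.993 (node 5), 0.994 and 0.996 (node 6) and 0.901 and 0.920 (node 11). In Ikzf2 the first finger lies inside node 10, whose Psi went the other way, from 0.576 to 0.433. The exon with fingers 2 and 3 of Ikzf2 lay at 0.914 and 0.925 and that with finger 4 at 0.849 and 0.904. In Ikzf3 the exon with the first finger lay at 0.987 and 0.990, that with fingers 2 and 3 at 0.982 and 0.990 and that with finger 4 at 0.956 and 0.981. For Ikzf4 only the exon of finger 4 had a core exon node, at 0.896 and 0.894, and for Ikzf5 the first finger's exon lay at 0.977 and 0.969. By Psi, then, the first finger was optional in Ikzf1 and Ikzf2 and nearly constant in Ikzf3 and Ikzf5.

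The transcripts of Ikzf2 that use or lose the first finger did not pass the test. Ikzf2-201, which keeps it, ranged from 1.69 to 7.89 CPM with a median of 6.36 in Control gRNA libraries and from 0 to 11.9 CPM with a median of 7.96 in Tardbp gRNA libraries. The single library at 0, Tardbp gRNA library 8, had 62.1% of its Ikzf2 counts on Ikzf2-203. Ikzf2-202, which lacks the finger, lay at 0.269 to 1.01 CPM with a median of 0.703 and 0.271 to 2.27 CPM with a median of 1.24 (log2 fold change 0.95, SE 0.37, edgeR adjusted p = 0.0961). As a share of the gene's counts Ikzf2-202 had medians of 6.14 and 7.36%, a difference of 1.28 percentage points (SE 2.99, limma adjusted p = 0.902).

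For 3′ ends, the most distal node had the higher Psi with Tardbp gRNA in each of the 4 members that have more than 1 such node. Beside Ikzf1 (0.307 and 0.70), these were Ikzf5 (0.718 and 0.860), Ikzf2 (0.888 and 0.931) and Ikzf4 (0.650 and 0.672). The difference was over 0.1 in 2 of the 4, beside 13.0% of the 4794 genes with 2 or more 3′ end nodes, among which 58.1% had any higher value and 7.07% were lower by over 0.1. The Ikzf1 difference of 0.393 was the 34th highest of the 4794. In Ikzf5 the proximal node went from 0.283 to 0.140. The only annotated transcript that ends at this node, Ikzf5-202, also lacks node 7, whose Psi was 0.942 with Control gRNA and 0.911 with Tardbp gRNA. Its counts therefore cannot stand for all RNA with the proximal end. Counts of Ikzf5-202, which ends there, were too few and too spread to show a direction, with medians of 0.400 and 0.298 CPM, 2 Control gRNA and 3 Tardbp gRNA libraries at 0 and a highest value of 2.13 CPM in Tardbp gRNA (log2 fold change 0.61, SE 1.13, edgeR adjusted p = 0.791). Ikzf5-201, with the distal end, lay at 13.1 to 17.8 CPM with a median of 15.1 and 9.84 to 15.1 CPM with a median of 13.4 (log2 fold change -0.24, SE 0.097, edgeR adjusted p = 0.111). The short Ikzf5-204 changed by 0.34 and Ikzf4-201 by 0.54 on the log2 scale, and neither was called (edgeR adjusted p = 0.735 and 0.32).

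**Figure D4:**
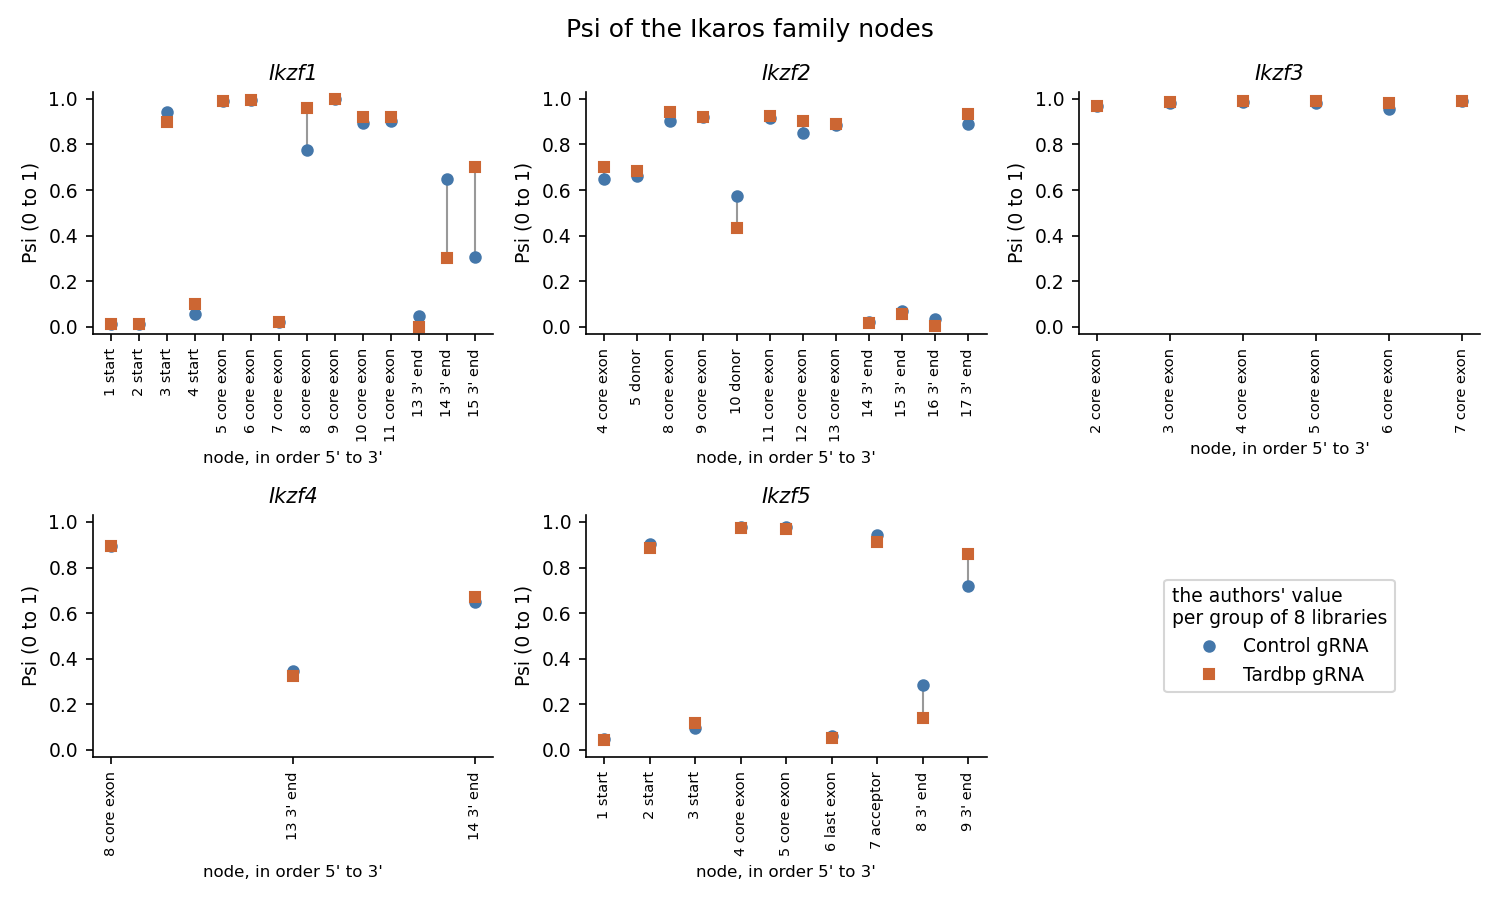
Psi of the 44 nodes of the 5 members, from 0 to 1, in order from 5′ to 3′, with the authors' value for each group of 8 libraries and a line joining the groups. The long lines are Ikzf1 exon 4 (node 8, 0.776 and 0.960), the Ikzf1 3′ end nodes 14 and 15, Ikzf2 node 10 and the Ikzf5 3′ end nodes 8 and 9.

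Of the 3 transcripts annotated as retaining an intron that passed the filter, Ikzf3-203 was called higher with Tardbp gRNA, and Ikzf2-203 and Ikzf2-205 were not called. Ikzf3-203, a retained intron transcript with no coding sequence at chr11:98512688-98546031, ranged from 1.10 to 4.95 CPM with a median of 1.63 in Control gRNA libraries and from 3.30 to 11.0 CPM with a median of 5.29 in Tardbp gRNA libraries. Apart from Control gRNA library 2 (4.95 CPM) the groups would not overlap. The log2 fold change was 1.58 (SE 0.33, edgeR adjusted p = 0.00295), larger than that of the coding Ikzf3-201 at 0.37 (SE 0.15, edgeR adjusted p = 0.108), although the difference between these transcripts was tested only through their shares. Ikzf3-203 held 1.58 to 4.67% and 3.44 to 10.5% of the gene's counts, a difference of 3.19 percentage points (SE 0.88, limma adjusted p = 0.0570), which did not pass. The coding Ikzf3-201 held 91.9 to 95.3% and 85.2 to 93.0%, a difference of -3.65 percentage points (SE 0.98, limma adjusted p = 0.0515). The non-coding Ikzf3-202 and Ikzf3-204 had log2 fold changes of 0.64 and 0.48 (edgeR adjusted p = 0.0535 and 0.437).

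The 2 retained intron transcripts of Ikzf2, Ikzf2-203 and Ikzf2-205, together held 26.0 to 41.4% of the gene's counts with a median of 35.9% in Control gRNA libraries and 35.7 to 75.9% with a median of 47.8% in Tardbp gRNA libraries. For 7 of 8 Tardbp gRNA libraries this share lay above the highest Control gRNA library. Separately they had log2 fold changes of 1.2 (SE 0.48, edgeR adjusted p = 0.104) and 1.10 (SE 0.39, edgeR adjusted p = 0.0709). A large part of the gene-level Ikzf2 count was thus on transcripts with no coding sequence, while the coding Ikzf2-201 changed by 0.32 on the log2 scale (SE 0.66) and was not called (edgeR adjusted p = 0.812).

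Genes whose products work with Ikaros proteins were read from the gene fit. Of 28 partner genes all were tested, with 3 called higher and 11 called lower, beside 23.5% and 23.3% of all genes, and their median log2 fold change was -0.09 beside 0.05 for all genes. In the NuRD complex, the nucleosome remodeling and deacetylase complex that Ikaros recruits, 1 of 14 genes rose and 4 fell (Mta2, Rbbp7, Rbbp4 and Hdac1), with a median of -0.06. Chd3, a NuRD helicase, rose, at 19.5 to 27.9 CPM (median 22.5) in Control gRNA libraries against 33.6 to 43.1 CPM (median 34.8), with no overlap (log2 fold change 0.64, SE 0.078, edgeR adjusted p = 2.56e-06). Chd4, the other helicase, had a log2 fold change of -0.13 and was not called. Groups without overlap, as for Chd3, were found for 16.9% of all genes tested. Among the corepressors CtBP and Sin3, Sin3a fell and 3 of 4 were not called.

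Of the 5 SWI/SNF remodeling genes 3 fell, the ATPase Smarca4 and the subunits Smarcc1 and Smarcd1, beside 23.3% of all genes that fell. Smarcc1 lay at 212 to 249 CPM (median 228) in Control gRNA libraries against 114 to 160 CPM (median 130), with no overlap (log2 fold change -0.80, SE 0.069, edgeR adjusted p = 9.13e-08). Beside 46.7% of all genes, all 5 genes of the CRL4-cereblon ubiquitin ligase were called, with 3 lower and 2 higher. Through this ligase lenalidomide-type drugs degrade Ikaros and Aiolos. Its adaptor Ddb1 lay at 425 to 604 CPM (median 501) in Control gRNA libraries against 208 to 326 CPM (median 261; log2 fold change -0.94, SE 0.085, edgeR adjusted p = 1.34e-07). The scaffold Cul4b lay at 47.9 to 56.4 CPM against 26.9 to 36.4 CPM (log2 fold change -0.70, edgeR adjusted p = 2.3e-07). The groups did not overlap for either of these genes, as for 16.9% of all genes tested. The substrate receptor Crbn and the RING protein Rbx1 rose by 0.25 and 0.18 on the log2 scale (edgeR adjusted p = 0.00142 and 0.00384). With RNA concentration added to the fit 10 partner genes were called in place of 14, beside 2697 of all 16650 genes in place of 7783. In that fit Crbn (0.13, edgeR adjusted p = 0.511) and Rbx1 (0.25, edgeR adjusted p = 0.103) were not called.

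Of 19 genes described as bound or regulated by Ikaros proteins in lymphocytes, 16 were tested, with 4 called higher and 4 called lower, beside 23.5% and 23.3% of all genes, and a median log2 fold change of 0.33 beside 0.05. Of this list Cd8a, Cd4 and Foxp3 are also cell markers above. The CPM of the groups did not overlap for 16.9% of all genes tested. Ifng, the effector cytokine gene, lay at 5.87 to 12.9 CPM (median 8.74) in Control gRNA libraries against 14.8 to 27.8 CPM (median 21.4), with no overlap (log2 fold change 1.30, SE 0.16, edgeR adjusted p = 2.44e-06). Il2, a gene that Ikaros is known to repress, lay at 1.11 to 1.73 CPM (median 1.29) and 1.19 to 2.02 CPM (median 1.58) and was not called (log2 fold change 0.25, SE 0.14, edgeR adjusted p = 0.149). Cd8a rose (0.62, SE 0.066, edgeR adjusted p = 6.83e-07), as did the other CD8 T cell markers. Vpreb1, a pre-B cell receptor gene, was called higher, at 0.134 to 0.903 CPM against 0.594 to 1.14 CPM (0.81, SE 0.29, edgeR adjusted p = 0.0269), with B cell markers moving as given above, and lost its call without any 1 of 5 libraries (adjusted p = 0.0505 to 0.0588). These were Control gRNA libraries 3 and 5 and Tardbp gRNA libraries 6, 7 and 8.

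Il2ra, the high-affinity IL-2 receptor chain, lay at 114 to 190 CPM (median 140) in Control gRNA libraries against 53.6 to 96.8 CPM (median 76.4), with no overlap (log2 fold change -0.97, SE 0.14, edgeR adjusted p = 1.2e-05). Tbx21, the gene of T-bet, and Myc fell by 0.44 and 0.33 on the log2 scale (edgeR adjusted p = 0.000202 and 0.000411), and in each 7 of 8 Tardbp gRNA libraries lay below the lowest Control gRNA library. With RNA concentration added to the fit 4 targets were called in place of 8, beside 2697 of all 16650 genes in place of 7783. In that fit Myc was at -0.05 (edgeR adjusted p = 0.817), and Il2ra (-0.65, edgeR adjusted p = 0.125) and Vpreb1 (1.24, edgeR adjusted p = 0.170) were not called. The called genes of this list were 4 higher and 4 lower, so the calls did not go in 1 direction. The median over all its tested genes was above 0, at 0.33 beside 0.05 for all genes.

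**Figure D5:**
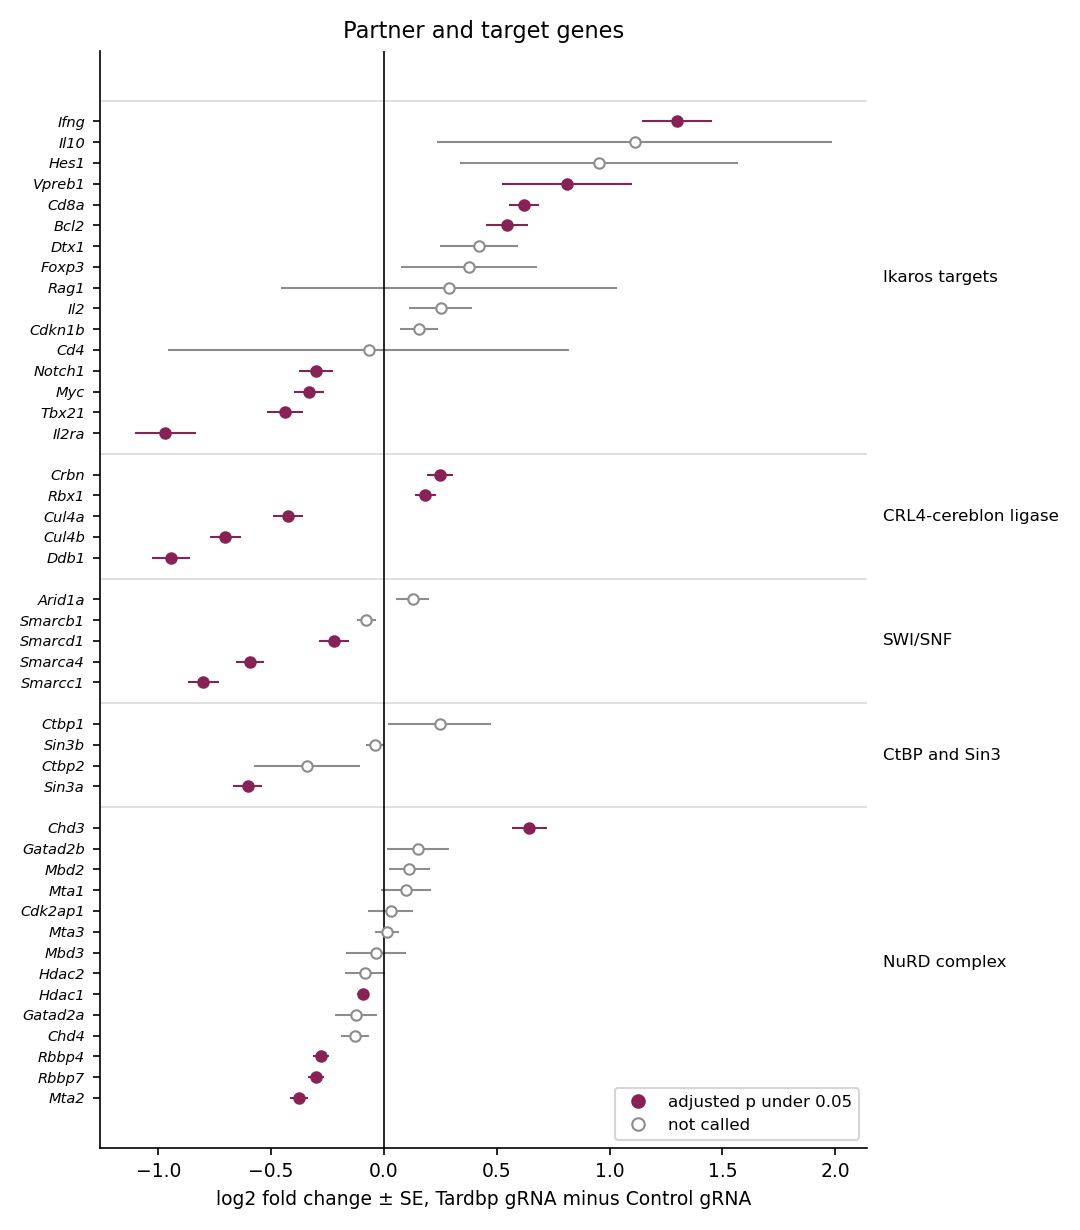
Log2 fold change (Tardbp gRNA minus Control gRNA) of the 28 partner genes and the 16 tested target genes, with bars of 1 SE from the edgeR fit on 8 libraries per group and filled points for genes called. Ddb1 (-0.94), Smarcc1 (-0.80) and Il2ra (-0.97) lie lowest, and Ifng (1.30) is the highest called gene.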

How the data were processed

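RNA of 16 libraries, 8 per group, had been prepared with SMART-Seq v4 and Nextera XT. Per the submitters' processing notes and the study's methods, alignment to mm10 used HISAT2 2.1.0, and StringTie 2.1.0 gave the authors' estimated counts for genes and for transcripts. These deposited estimated counts are whole numbers with no normalization. The kit does not mark strand, so overlapping antisense RNA cannot be told apart. Both sets of counts held 10 further columns that matched no sample and were not used, and lines naming no gene held 0.0836 to 0.132% of counts and were left out. The authors deposited Psi from Whippet (version not given in the sources used here) as a fraction per group. Its depth is unknown, and the group of each Psi column was taken from the study's text. Their columns of Psi differences and probabilities are their own comparison and were not used.

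Genes and transcripts were tested with edgeR 4.0.16 (TMM, filterByExpr with a minimum count of 10, quasi-likelihood test, Benjamini-Hochberg over all features, called at 0.05) in R 4.3.3. Shares of each transcript in its gene's counts, and core exon inclusion rebuilt from length-scaled transcript counts (mean count over 50), were tested with limma 3.58.1 with calls at an adjusted p under 0.05 where the difference was also over 0.1. Single values used two-sided exact permutation tests in Python 3.11.15 with numpy 2.4.6. SEs of log2 fold changes were derived from the F statistic. On simulated data, 143 of 200 genes and 40 of 200 transcripts changed by a log2 value of 1 were recovered, so transcripts that were not called may still differ. Names and coordinates are from GENCODE M21.

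Members and lists were chosen with earlier results of these data known. Named were Tardbp, the members, their transcripts past the filter, their nodes with a Psi difference over 0.1 and the Ikzf1 core exons, the 3 highest and 3 lowest called genes of the partner and target lists with Il2 and Ifng, and the 3 genes most like each member. Other partner genes, the called regulatory T cell genes and the NK cell genes, named to resolve a count of 5 or fewer, and Chd4 were chosen after their values were seen. Ikzf1-203 and Ikzf1-204 share most of their sequence, so their estimated counts rest on few distinguishing reads. Alternatives tried were DESeq2 1.42.0, RLE scaling, no filter, covariates, blocks, other scalings and thresholds, and leaving out each library. The check of replicate numbers gave correlations of -0.005 to 0.160 between same-numbered libraries, so numbers were not taken as pairs.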

Additional observations from a re-analysis of the deposited data

Results flagged for a closer look

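In 50 groups of 8 values (the CPM of the members and their transcripts and both Ikzf1 fractions), 4 had an end value far from the rest, where chance gives about 1 in 20 groups. Ikzf1 in Tardbp gRNA library 3 was lowest at 134 CPM, with the next at 155. Ikzf1-201 in Control gRNA library 2 was highest at 5.18 CPM, with the next at 1.84. Ikzf3-203 in the same Control gRNA library was highest at 4.95 CPM, with the next at 1.99. Ikzf3-204 in Control gRNA library 6 was lowest at 0.0565 CPM, with the next at 0.551.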

How the results depend on the processing

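When RNA concentration (log2) was added to the fit, which does not overlap between groups, 0 members were called by edgeR (1 had an unadjusted p under 0.05), 0 of their transcripts (4 unadjusted), 10 partners and 4 targets, while 2697 of 16650 genes still were. There Ikzf2 reversed to -0.10 and Ikzf2-201 to -0.58. With a log2 fold change over 1 required, 0 members were called. DESeq2 called 6 transcripts, the division of numbers 1 to 3 and 4 to 8 as a block 5. Length-scaled shares gave 1 called share. Psi differences over 0.2 were found in 2 nodes and over 0.05 in 8.

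With the replicate block, 0 shares were called (3 had an unadjusted p under 0.05 and a difference over 0.1), the Ikzf1 distal 3′ end difference was 0.174 (exact sign-flip test, p = 0.0156) and Ikzf5-202 reversed to -0.29. The block left the other calls counted above on the same side within 1.5 times. Exon 4 inclusion reversed to 0.00313 without length scaling, and to 0.0209 and, without scaling, 0.00669 among transcripts reaching the last coding exon. With the letter M or F of the labels as a covariate Ikzf1-205 reversed to 0.0468, and length-scaled shares turned Ikzf2-202 to -0.0085. None of these reversed values was called, apart from exon 4 among transcripts reaching the last coding exon. Without the 2 libraries highest in B cell markers, 2 members were called, Ikzf2 being lost (adjusted p = 0.135).

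Leaving out each library gave 2 to 4 members, 3 to 5 transcripts (5 without Tardbp gRNA library 1), 0 to 2 shares, 0 to 1 rebuilt core exons (the 60-base exon of Ikzf1 without Control gRNA library 4, adjusted p = 0.0274), 14 to 16 partners and 7 to 9 targets. The distal 3′ end difference stayed between 0.153 and 0.20 (exact permutation p = 0.000155 to 0.00326) and that of exon 4 between -0.0201 and -0.00484. Values near 0 that reversed ranged from -0.0519 to 0.0404 for Ikzf1-204 and -0.081 to 0.0732 for Ikzf1-205 in log2 fold change, and in share from -0.00015 to 0.00154 for Ikzf1-202, -0.00043 to 0.00032 for Ikzf1-206, -0.0072 to 0.0313 for Ikzf2-202 and -0.00051 to 0.00108 for Ikzf3-204. The cause of these changes was not tested. Counts of a fraction of a CPM, as for Ikzf4 and Ikzf5-202, limit what can be seen of the rarest members.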
